A study of Homo sapiens with 6 samples.

Results

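The genes for dynamin and for its BAR-domain partners were examined in a genome-wide CRISPR interference (CRISPRi) screen for opioid receptor abundance after agonist. The 8 members were DNM1, DNM2, DNM3, AMPH, BIN1, SH3GL1, SH3GL2 and SH3GL3, out of 18905 genes with a value. They were chosen by name, as every sgRNA row of the count tables that carried 1 of these symbols, and the set was named with earlier results of these data known. None of the 8 was called by a Mann-Whitney test at an adjusted P below 0.05. DNM2 had the value farthest from 0, on the side of more receptor signal. It passed a score rule of the kind given in the study's methods under 2 of the 5 set-ups tried, which differed only in how P was computed. The study itself states that dynamin was not among the hits of its screen.

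The cells were HEK293 FLP-In, an embryonic kidney line, carrying a delta opioid receptor with the recycling sequence of the mu receptor at its C terminus, fused to the peroxidase APEX2 and stably expressed. They also carried the CRISPRi repressor dCas9-KRAB-BFP and were expanded as clones, so the results describe a clonal line. Cells of all 6 libraries received virus at a low multiplicity of infection of about 0.2, puromycin at 0.75 µg/ml for 3 days, and 10 µM DADLE, an opioid peptide agonist, for 90 min at day 8 after transduction by the labels. APEX2 activity was read with 100 µM Amplex UltraRed and 50 µM H2O2, and cells in the top and bottom quartiles of fluorescence were sorted. There was no library without agonist and no library from before the knockdown.

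Dynamins are large GTPases that polymerise around the neck of a budding vesicle and sever it from the membrane. BAR domains are crescent-shaped dimers that bind and bend membranes, and amphiphysins and endophilins join a BAR domain to an SH3 domain that binds the proline-rich tail of dynamin. DNM1 is the main dynamin of neurons, DNM2 is made in most tissues, and DNM3 is found chiefly in brain, testis and lung. Activated opioid receptors are taken up through clathrin-coated pits, which dynamin cuts from the plasma membrane, and are then recycled or sent to lysosomes. The screen read sgRNA abundance in genomic DNA, so neither the expression of the members in these cells nor the extent of their knockdown was measured.

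CRISPRi acts at the promoter, and the sgRNAs of all 8 members carried the same start site label, P1P2. The 250 bases upstream of the RefSeq start of the 3 dynamin genes are shown as the regions next to which the repressor was directed. The build is GRCh38.p14, letters run 5′ to 3′ along the strand of the gene, and capitals mark GG or CC, the fixed bases of the NGG motif that Cas9 needs, on the given and on the opposite strand.
DNM1, chr9:128203129-128203378, plus strand: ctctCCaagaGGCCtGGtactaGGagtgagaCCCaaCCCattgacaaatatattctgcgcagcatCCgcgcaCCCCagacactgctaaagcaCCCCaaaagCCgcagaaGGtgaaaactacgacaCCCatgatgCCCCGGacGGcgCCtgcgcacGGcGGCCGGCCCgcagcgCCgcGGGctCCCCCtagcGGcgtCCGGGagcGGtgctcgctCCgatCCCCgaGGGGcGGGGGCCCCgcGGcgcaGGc
DNM2, chr19:10717829-10718078, plus strand: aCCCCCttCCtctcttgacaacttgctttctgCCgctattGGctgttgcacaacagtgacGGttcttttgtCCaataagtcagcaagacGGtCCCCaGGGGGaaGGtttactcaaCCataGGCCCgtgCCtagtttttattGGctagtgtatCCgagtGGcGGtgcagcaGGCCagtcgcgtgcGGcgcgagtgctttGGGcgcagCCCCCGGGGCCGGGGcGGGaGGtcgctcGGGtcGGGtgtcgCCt
DNM3, chr1:171841248-171841497, plus strand: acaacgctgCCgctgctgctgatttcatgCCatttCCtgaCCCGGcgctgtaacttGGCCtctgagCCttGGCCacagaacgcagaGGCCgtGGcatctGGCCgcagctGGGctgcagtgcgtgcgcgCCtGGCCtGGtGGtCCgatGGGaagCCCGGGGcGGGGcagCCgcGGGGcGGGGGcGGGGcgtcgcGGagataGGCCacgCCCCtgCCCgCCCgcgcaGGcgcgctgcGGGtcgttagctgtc

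The DNM2 window held 51 NGG motifs over both strands, with overlaps counted, against 60 in the DNM1 window and 58 in the DNM3 window. At least 1 such motif was present in 100% of 35116 RefSeq promoters cut to the same length, with a median of 48. G and C made up 60.8% of the DNM2 window, 68.4% of the DNM1 window and 72% of the DNM3 window, against a median of 58% over all promoters. These windows describe only the bases upstream of the RefSeq starts, and they may not hold the target sites of the sgRNAs. The sgRNA names give positions in a build other than GRCh38.p14, so spacing between sgRNAs is given below and no sgRNA was placed on these sequences.

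Each member had 10 rows in the count tables, of which 5 had reads (4 for SH3GL2), and the 5 or 6 without a read were left out. Reads of DNM1, DNM2, DNM3, BIN1, SH3GL1 and SH3GL2 were held by the sublibrary H23, and those of AMPH and SH3GL3 by H456. In H23 the bottom and top quartile libraries held 40946430 and 47989659 reads, and in H456 they held 50486627 and 29611047. There was 1 library per quartile and sublibrary, so no value below has a replicate sort behind it. For each sgRNA, the fraction of top quartile reads was divided by the fraction of bottom quartile reads, and the log2 value after centring on nontargeting control (NTC) sgRNAs is called its phenotype. A positive phenotype means enrichment among cells with more receptor signal. The NTC sgRNAs numbered 570 in H23 and 739 in H456, with an SD of 0.28 and 0.30, and their 1st and 99th percentiles were -0.74 and 0.68 in H23 and -0.83 and 0.77 in H456. As a yardstick, sgRNAs against the Retromer subunit VPS29 had a phenotype of -1.60 ± 0.46 (SD, n = 6 sgRNAs).

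Of the 8 members, 0 were called at an adjusted P below 0.05 by the exact two-sided Mann-Whitney test of sgRNAs against NTC sgRNAs with Benjamini-Hochberg adjustment, and 1, DNM2, had an unadjusted exact P below 0.05. Over all genes 0.476% were called and 8.11% had an unadjusted P below 0.05. For genes higher in the top quartile, the direction of DNM2, 0.0952% were called. Its replicates are sgRNAs within 1 sort, so P says nothing of the variation between cultures.

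DNM2 had the highest phenotype of the members, at 0.46 ± 0.36 (SD, n = 5 sgRNAs), and all 5 of its sgRNAs were positive. Among H23 genes with 5 analysed sgRNAs, 4.46% had all of them positive, and DNM2 was the 1 such gene among the 5 members of that kind. Its mean ranked 59 of 18905 genes from the highest and 16 of 6018 within H23. Its exact Mann-Whitney P was 0.0032 and its adjusted P 0.23, so the gene did not pass. DNM2 is the ubiquitous dynamin, which cuts clathrin-coated vesicles from the plasma membrane of non-neuronal cells.

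The 5 DNM2 sgRNAs, numbered by position, gave unequal values. sgRNA 1 had 339 reads in the bottom and 567 in the top quartile library, a phenotype of 0.50 (95% counting interval 0.30 to 0.69). sgRNA 2, 20 bases away on the opposite strand, had 108 and 249 reads and a phenotype of 0.96 (0.63 to 1.28). It was the 1 sgRNA among the 39 of the members that lay above the 99th percentile of the NTC sgRNAs. sgRNA 3, at 53 bases, had 605 and 1098 reads and a phenotype of 0.61 (0.47 to 0.76). sgRNA 4, at 105 bases, had 723 and 877 reads and 0.032 (-0.11 to 0.17), and its interval held 0. sgRNA 5, at 230 bases, had 1474 and 2005 reads and 0.20 (0.10 to 0.29). The 3 sgRNAs within 53 bases of each other thus had the higher phenotypes and the other 2 the lower ones, and read counts were lowest for the strongest sgRNA. These intervals cover counting error only, since PCR reads carried no molecular identifiers.

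**Figure D1:**
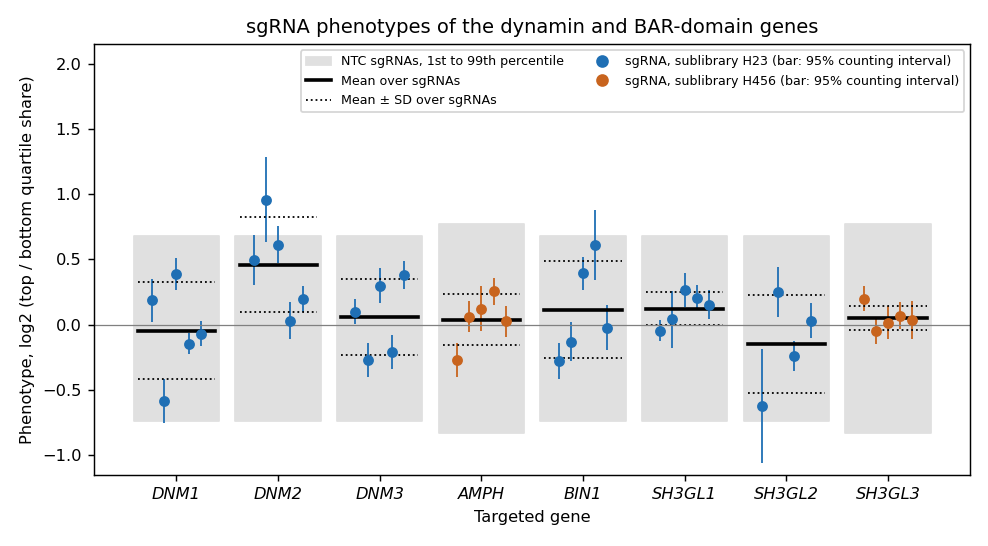
Phenotype (y axis, log2) of each analysed sgRNA of the 8 genes (x axis, sgRNAs in order of position), with 95% counting intervals as bars, the mean over sgRNAs as a thick line, mean ± SD as dotted lines and the 1st to 99th percentile of NTC sgRNAs of the sublibrary in grey. All 5 DNM2 sgRNAs lie above 0 and 1 lies above the grey band, whereas the sgRNAs of every other gene lie on both sides of 0 and within the band.

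Low read counts widen the phenotype, and the DNM2 values were therefore set beside H23 sgRNAs of like abundance. Abundance was log2 of the summed share in both quartiles over that of the median sgRNA, and the 33292 analysed H23 sgRNAs were put in 20 bins of 5% each. In the least abundant bin the SD of the phenotype was 0.64, against 0.30 over all H23 sgRNAs. The strongest DNM2 sgRNA, at an abundance of -2.85, lay in that bin, where 4.21% of sgRNAs had a phenotype at or above its own. For sgRNA 3, at -0.59, the share in its bin was 1.26%, and for sgRNA 1, at -1.49, it was 8.47%. For sgRNAs 4 and 5 it was 46.3% and 14.95%. Of the DNM2 sgRNAs, sgRNA 3 was therefore the one that stood farthest out among sgRNAs of its own abundance. Other members had shares in the range of sgRNAs 1 and 2, such as 6.61% for DNM1 sgRNA 3 and 6.01% for BIN1 sgRNA 3. Without sgRNA 2 the DNM2 mean was 0.33, and with the reads of all 5 sgRNAs summed (3249 bottom, 4796 top) the phenotype was 0.32. Leaving out each sgRNA in turn gave means of 0.33 to 0.57 and adjusted P of 0.0714 to 0.485 by the exact Mann-Whitney test, all short of the threshold.

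**Figure D2:**
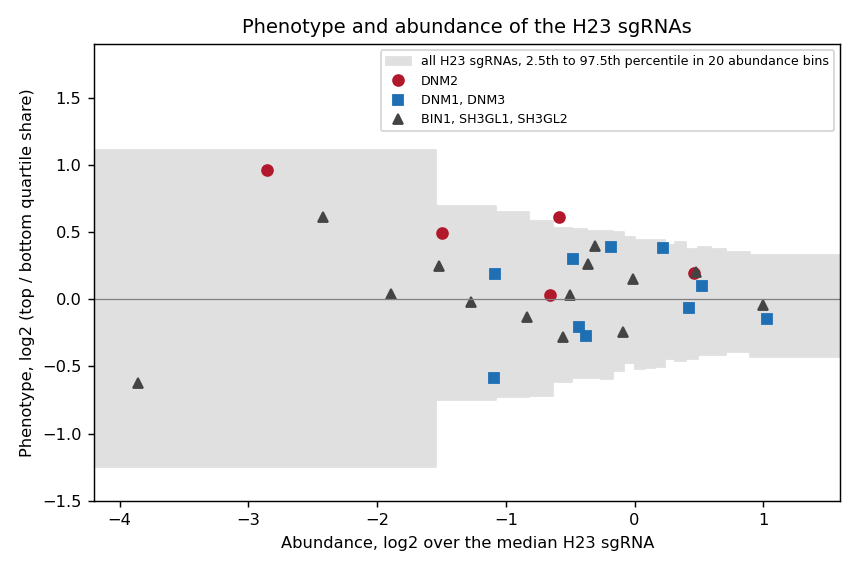
Phenotype (y axis, log2) against abundance (x axis, log2 over the median H23 sgRNA) of the 29 member sgRNAs in H23, with the central 95% of all H23 sgRNAs of like abundance in grey. The least abundant DNM2 sgRNA, at 0.96, falls inside the wide band of its bin, and the DNM2 sgRNA at 0.61 falls above the band of its own.

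The DNM2 mean, 16 of 6018 from the highest in H23, lay within the range of called genes. Most H23 genes with a higher mean were not called. In H23, 10 genes were called higher in the top quartile, with phenotypes from 0.41 to 0.86 and exact P of at most 0.000238. Of these, CHMP6, DDX6, SYVN1, DDA1 and HIST1H2AB, named here after their values were seen, had a lower mean than DNM2, and their SD over sgRNAs was 0.14 to 0.19 against 0.36 for DNM2. A rule of the kind given in the study's methods was also applied. Its score is the size of the phenotype in units of the SD of pseudogenes, times minus log10 of P. Pseudogenes were overlapping runs of 5 NTC sgRNAs in name order, 570 of them in H23. They were weighted to count for as many items as the genes of the sublibrary, 6018 in H23. The threshold was the lowest score from which less than 10% of the weighted items were pseudogenes. The methods do not give this weighting or how pseudogenes were assembled. By this rule DNM2, with a score of 8.82 against a threshold of 6.62 in H23, was past the threshold. The other 7 members were not, a count of 1 of 8 beside 0.899% of all genes. The threshold was set per sublibrary and was 14.2 in H456. In H23 the rule called 124 of 6018 genes, among which DNM2 ranked 86, and in H456 it called 23 of 6924. The call of DNM2 depended on how the rule was set up. It held with the normal approximation of P in the score (a score of 7.91, above the threshold). With pseudogenes that shared no sgRNA the threshold was 9.03 and the DNM2 score 8.52, and with less than 5% pseudogenes the threshold was 9.35, so DNM2 was not called. With one threshold over the 3 sublibraries it was 13.4, again above the DNM2 score.

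DNM1 and DNM3 had sgRNAs of both signs. DNM1, the neuronal dynamin of synaptic vesicle uptake, had a phenotype of -0.045 ± 0.37 (SD, n = 5 sgRNAs; exact Mann-Whitney adjusted P = 0.985). In order of position its sgRNAs had 508, 649, 877, 2469 and 1582 reads in the bottom quartile library and 686, 513, 1361, 2647 and 1791 in the top one. Their phenotypes were 0.19, -0.59, 0.39, -0.15 and -0.068, so that 3 were negative and 2 positive. sgRNAs 1 and 2 lay 34 bases apart and had opposite signs, and both had fewer reads than the other 3. DNM3 had a phenotype of 0.059 ± 0.29 (SD, n = 5 sgRNAs; exact Mann-Whitney adjusted P = 0.942), with single sgRNAs at 0.099, -0.27, 0.30, -0.21 and 0.38. Its reads were 1594, 969, 742, 915 and 1163 in the bottom and 2025, 952, 1082, 939 and 1799 in the top quartile library, with no sgRNA far below the others in reads. Of H23 sgRNAs of like abundance, 4.08% were at or above DNM3 sgRNA 5, close to the share for the strongest DNM2 sgRNA. DNM3 sgRNAs 3 and 4, 16 bases apart on one strand, overlapped in sequence window and yet differed by 0.51. The difference between DNM2 and the other dynamins was not tested, because sgRNAs of different genes are not replicates of one another.

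**Figure D3:**
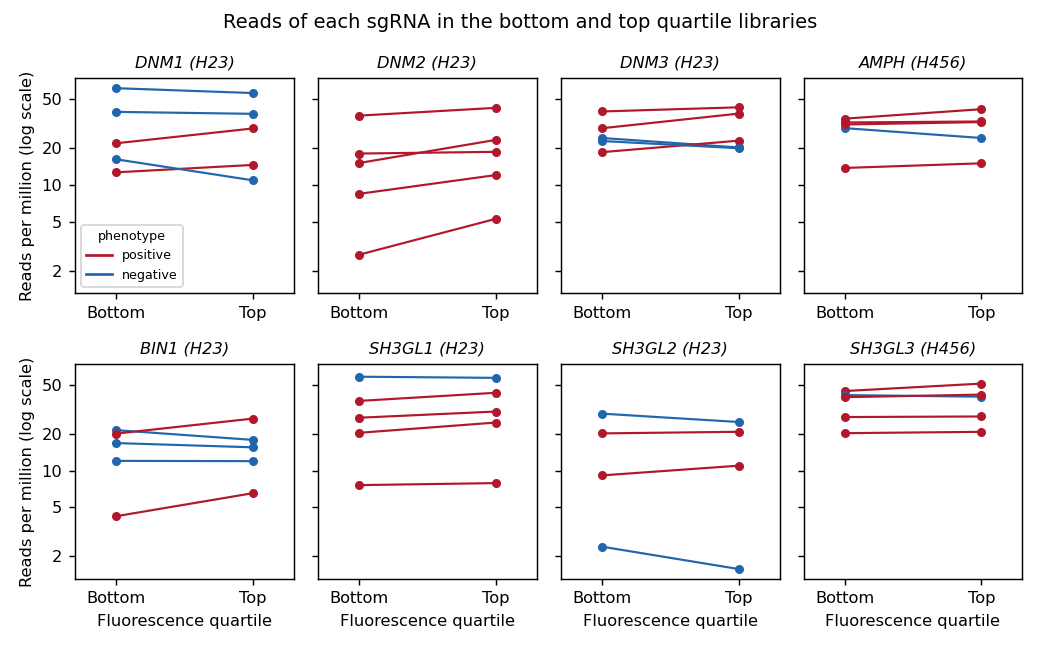
Depth-scaled reads (y axis, log scale, unit as labelled) of each sgRNA in the bottom and top quartile library of its sublibrary (x axis), 1 panel per gene, with red lines for a positive and blue lines for a negative phenotype. For DNM2 all 5 lines are red, and the lowest, for the sgRNA with 108 and 249 reads, has the steepest slope, whereas every other panel has lines of both colours.

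The amphiphysins gave means near 0. AMPH, amphiphysin, which brings dynamin to coated pits at nerve terminals, had a phenotype of 0.039 ± 0.19 (SD, n = 5 sgRNAs; exact Mann-Whitney adjusted P = 0.931). Its sgRNAs had 1437, 1539, 680, 1717 and 1598 reads in the bottom and 700, 944, 435, 1203 and 955 in the top quartile library of H456, for phenotypes of -0.27, 0.062, 0.12, 0.25 and 0.025. One of the 5 was negative and the other 4 positive, and the intervals of sgRNAs 2, 3 and 5 held 0. BIN1, the broadly expressed amphiphysin that shapes the T tubules of muscle, had a phenotype of 0.11 ± 0.37 (SD, n = 5 sgRNAs; exact Mann-Whitney adjusted P = 0.938). Its sgRNAs had 857, 672, 803, 170 and 481 reads in the bottom and 838, 729, 1251, 308 and 562 in the top quartile library, for phenotypes of -0.28, -0.13, 0.39, 0.61 and -0.022. The highest BIN1 value thus came from the sgRNA with the fewest reads, and 11.7% of H23 sgRNAs of like abundance were at or above it. That sgRNA, sgRNA 4, and sgRNA 5 lay 3 bases apart on the same strand and differed by 0.63. Without sgRNA 4 the BIN1 mean was -0.0094, and the median over sgRNAs was -0.022.

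The endophilins A bind dynamin and the lipid phosphatase synaptojanin, and have been placed both at clathrin-coated pits and on a fast clathrin-independent route of receptor uptake. SH3GL1, endophilin A2, the member of the group found in most tissues, had a phenotype of 0.12 ± 0.13 (SD, n = 5 sgRNAs; exact Mann-Whitney adjusted P = 0.799), the highest after DNM2. Its sgRNAs had 2340, 305, 815, 1484 and 1082 reads in the bottom and 2689, 372, 1161, 2031 and 1428 in the top quartile library. The phenotypes were -0.046, 0.040, 0.26, 0.21 and 0.15. Of these, 4 were positive, and the intervals of sgRNAs 1 and 2 held 0. SH3GL2, endophilin A1 of brain, had 4 analysed sgRNAs and the lowest phenotype of the members, at -0.15 ± 0.38 (SD, n = 4 sgRNAs; exact Mann-Whitney adjusted P = 0.909). Its reads were 96, 366, 1169 and 806 in the bottom and 74, 516, 1173 and 976 in the top quartile library, and its phenotypes -0.62, 0.25, -0.24 and 0.029. The lowest value belonged to the least abundant sgRNA of all members (counting interval -1.06 to -0.18), and without it the mean was 0.012. SH3GL3, endophilin A3, made mainly in brain and testis, had a phenotype of 0.054 ± 0.091 (SD, n = 5 sgRNAs; exact Mann-Whitney adjusted P = 0.921), the closest agreement among sgRNAs of any member. In H456 its reads were 2202, 2041, 1351, 1963 and 998 in the bottom and 1486, 1162, 801, 1208 and 600 in the top quartile library, and its phenotypes 0.20, -0.045, 0.013, 0.067 and 0.033. The interval of sgRNA 1 lay above 0 and those of the other 4 held 0.

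Across the 39 analysed sgRNAs of the members 26 were positive and 13 negative, and without DNM2 21 of 34 were positive. The 7 other members lay between -0.15 and 0.12, with a median of 0.054, and their lowest adjusted P was 0.799 by the exact Mann-Whitney test. Over sgRNAs of a gene the SD was 0.091 to 0.38, whereas the median counting SD per gene was 0.053 to 0.084. Spread between sgRNAs was therefore greater than counting error at this depth. A gene with 5 sgRNAs of such spread could differ from the controls without passing the test, and the misses above do not show that knockdown was without effect.

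Neighbouring sgRNAs of one gene did not always have like phenotypes. The members had 8 pairs of sgRNAs on one strand that lay less than the window of 23 bases apart, in BIN1, DNM3, SH3GL2 and SH3GL3, and no DNM2 pair was among them. Members of such a pair differed by 0.22 to 0.87. The SD of single NTC sgRNAs was 0.28 in H23 and 0.30 in H456, and differences between pairs of NTC sgRNAs were not computed. Whether these pairs differed more than unrelated sgRNAs was thus not tested. The widest difference was in SH3GL2, where its sgRNAs 15 bases apart had -0.62, from 96 and 74 reads, and 0.25. The narrowest was in BIN1, where those 13 bases apart had 0.39 and 0.61. No position was shared with an sgRNA listed for another gene.

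**Figure D4:**
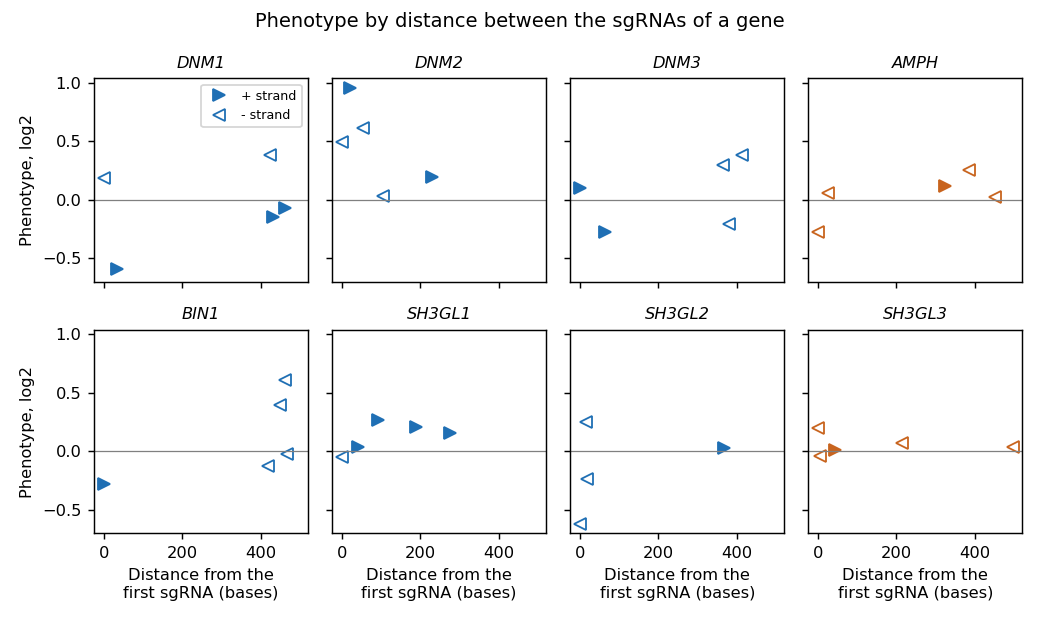
Phenotype (y axis, log2) of each sgRNA against its distance in bases from the first sgRNA of the gene (x axis), 1 panel per gene, with filled symbols for the plus and open symbols for the minus strand, blue for H23 and orange for H456. In DNM2 the 3 sgRNAs within 53 bases hold the higher values. Some neighbouring sgRNAs of BIN1, DNM3, SH3GL2 and SH3GL3 have opposite signs, and others in BIN1 and SH3GL2 share a sign.

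Several members were also low in abundance over both quartiles together. All 5 BIN1 sgRNAs, all 4 SH3GL2 sgRNAs and 4 of the 5 DNM2 sgRNAs lay below the median sgRNA of H23. For DNM1, DNM3 and SH3GL1 it was 3 of 5, near the even split that a median sets over all sgRNAs. How many H23 genes had as many sgRNAs below the median was not counted. In H456, 1 of 5 was below the median for AMPH and for SH3GL3. The median abundance was -0.65 for DNM2, -0.84 for BIN1, -1.01 for SH3GL2, 0.41 for AMPH and 0.76 for SH3GL3. For DNM1, DNM3 and SH3GL1 it was -0.18, -0.38 and -0.0084. Without a library from before the knockdown, loss of cells and an unequal starting pool cannot be told apart.

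Related genes in 4 lists, 64 in all, were read beside the members and beside the whole screen, where the median phenotype was 0.0013 and 50.4% of genes were positive. None of the 64 was called, a count not to be told from the share of 0.476% called over all genes. The median of the 8 members was 0.056, with 6 of 8 positive. Of 20 other genes with BAR-type domains 0 were called in either direction, their median was -0.013 and 7 were positive. FNBP1, one of these and named here after its value was seen, is among the hits the study lists. Here its phenotype was -0.0055, with an exact Mann-Whitney adjusted P of 0.993. FNBP1L, an F-BAR protein that links membranes to actin assembly and is also known as Toca-1, had the highest value of that list at 0.43 ± 0.29 (SD, n = 5 sgRNAs), with all 5 sgRNAs positive. Its exact Mann-Whitney P was 0.00103 and its adjusted P 0.129, so that it, like DNM2, did not pass that test. FNBP1L was in H456, where the threshold of the score rule was 14.2, against 6.62 in the H23 of DNM2. Scores of genes in the 4 lists are not given here, so the 2 genes are not compared by that rule. FCHO2, an F-BAR protein of early clathrin-coated pits, had the lowest at -0.19 ± 0.21 (SD, n = 5 sgRNAs).

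Among clathrin and AP2, the coat and its adaptor, 0 of 10 genes were called, and the median was 0.035 with 6 positive. AP2B1 and AP2S1, the beta and sigma subunits of the adaptor, were each at 0.20 with 4 of 5 sgRNAs positive and unadjusted exact P of 0.0472 and 0.048 (exact adjusted P 0.60 for both), beside a share of 8.11% of all genes with an unadjusted P below 0.05. AP2S1 is named here after its value was seen. PICALM, an adaptor that binds clathrin and SNARE proteins, was lowest at -0.21 ± 0.45 (SD, n = 4 sgRNAs). Among 20 scaffolds, lipid phosphatases and uncoating factors that act beside dynamin, 0 were called and the median was -0.0039, with 9 positive. There the lipid phosphatase OCRL was lowest at -0.22 and the uncoating kinase GAK highest at 0.13. Among 14 other members of the dynamin superfamily, which act mostly on mitochondria, the endoplasmic reticulum and in antiviral defence, 0 were called and the median was -0.065, with 5 positive. The range of that list ran from -0.17 for the atlastin ATL3 to 0.16 for the guanylate-binding protein GBP3.

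**Figure D5:**
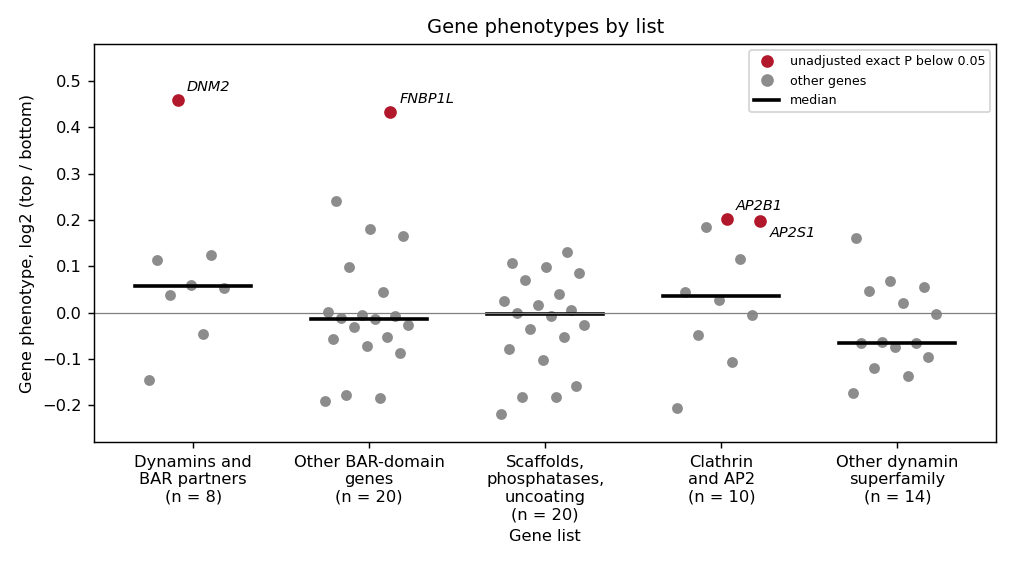
Gene phenotype (y axis, log2 of top over bottom) for the 8 members and the 4 lists (x axis, number of genes in parentheses), with 1 point per gene, the median as a line, and genes with an unadjusted exact P below 0.05 in red. DNM2 at 0.46 and FNBP1L at 0.43 lie above the other genes, which lie between -0.22 and 0.24.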

How the data were processed

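Genomic DNA of sorted cells was amplified over the integrated sgRNAs (27 PCR cycles) and sequenced. The authors cropped reads to 38 bp and counted them with ScreenProcessing (version 0.1 in the submitters' processing notes), and the deposited values are raw counts per sgRNA, with no normalization, in 6 libraries (3 sublibraries, H17, H23 and H456, each with a bottom and a top quartile). Quartiles were taken from sample titles. Reads per library ranged from 23426498 to 50486627.

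An sgRNA was assigned to the sublibrary that held its reads and analysed with at least 50 reads in at least one library, and 1 was added to both counts where one was 0. Phenotypes were averaged over the sgRNAs of a start site (at least 2). For the 1577 genes with more than 1 start site, the site with the smallest P was kept, with no correction for that choice. This can raise the shares called over all genes, whereas the members had only the P1P2 site. Each gene was tested against NTC sgRNAs by the exact two-sided Mann-Whitney test with Benjamini-Hochberg adjustment over 18905 genes (Python 3.11.15, scipy 1.17.1), after tests on simulated data. With 1 library per group, edgeR (4.0.16) served for TMM factors only. Counting intervals are 95%. Alternatives were the read minimum, added count, centring, gene summary, comparison set, start sites, P, call rule, depth and leaving out sgRNAs. Members and gene lists were chosen with earlier results of these data known. The rule for named genes was all members, called genes and extremes of each list, and the yardstick VPS29, and 1 further yardstick is not reported here. Genes named outside this rule are marked in the text as chosen after their values were seen. Promoter windows are from RefSeq, in which all 8 members matched.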

Additional observations from a re-analysis of the deposited data

Results flagged for a closer look

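Reads of member sgRNAs were also found in libraries of sublibraries that do not hold the gene, where no member sgRNA was expected and no comparison was made. The highest count of an sgRNA in such a library was 13 for DNM1, 7 for DNM2, 10 for DNM3, 11 for AMPH, 4 for BIN1, 18 for SH3GL1, 7 for SH3GL2 and 8 for SH3GL3, each above the 3 counts that a count of 0 allows. Their summed reads were at most 0.986% of the reads of any member sgRNA, and over all sgRNAs of H23 the median share was 0.392%. Their part in the phenotypes was not tested.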

How the results depend on the processing

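No paired analysis was possible because each quartile and sublibrary has 1 library and the labels give no replicate numbers. Over 14 settings the DNM2 phenotype ran from 0.33 without its strongest sgRNA to 0.69 over its 3 strongest. The comparison set, the approximation of P and the pooling of start sites could not move its phenotype. The gene summary, centring on all sgRNAs and TMM scaling could not move its Mann-Whitney P, so its adjusted P stayed at 0.23. Leaving out the strongest sgRNA took it from every gene but not from the NTC sgRNAs, which pulled all genes toward no call. Its adjusted P was 1 in that setting, against 0.485 when the same sgRNA was left out of DNM2 alone. In the remaining settings it was 0.226 to 0.419. None of the 14 settings called a member by the exact or approximate Mann-Whitney test, though those that could not move P were bound to repeat the main result. The score rule called 1 member, DNM2, and 170 genes. All variants of that rule were chosen after seeing the data: the normal approximation in the score called 168 genes, 1 of them a member (DNM2), whereas pseudogenes that shared no sgRNA called 253 genes, a 5% limit 130 and one threshold over the sublibraries 92, none of them a member. Against the 90 genes called in the screen, sgRNAs of olfactory receptor genes as the comparison set gave 50, leaving out the strongest sgRNA of every gene 22, and the normal approximation 0, where 1496 genes had an unadjusted P below 0.05 and the smallest adjusted P was 0.229. The other counts were 75 to 94.

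Near 0, signs changed. SH3GL2 was 0.011 with a read minimum of 100 and 0.012 without the strongest sgRNA, where DNM1 was 0.090, DNM3 -0.021 and BIN1 -0.0094, and BIN1 was -0.022 as a median over sgRNAs. Leaving out each sgRNA in turn gave -0.15 to 0.090 for DNM1, 0.33 to 0.57 for DNM2, -0.021 to 0.14 for DNM3, -0.015 to 0.12 for AMPH, -0.0094 to 0.21 for BIN1, 0.088 to 0.17 for SH3GL1, -0.28 to 0.012 for SH3GL2 and 0.017 to 0.078 for SH3GL3. Member sgRNAs had 74 to 2689 reads per library, and the lowest counts, which limit precision, belonged to SH3GL2, DNM2 and BIN1.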
